A study of Mus musculus with 66 samples.

Results

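Brush border peptidases and intestinal alkaline phosphatase are enzymes on the apical surface of the small intestine, and 9 of them were followed here across 3 organoid cultures by mRNA level, open chromatin, histone marks and binding of the transcription factor Hnf4g. The 9 genes were Anpep, Alpi, Dpp4, Ace, Enpep, Mme, Mep1a, Mep1b and Xpnpep2, chosen by name, and each had 1 row among the 9481 transcripts of the expression table. All 9 were among the 9288 transcripts tested. The organoids were grown from mouse small intestine carrying an Lgr5 GFPDTR/+ allele, a reporter at the gene for a stem cell receptor that every culture shared. ENR is the standard medium with EGF at 50 ng/mL, Noggin and R-Spondin-1. CV is ENR with CHIR99021 at 3 µM, a GSK3 inhibitor that raises Wnt signaling, and valproic acid at 1 mM, a histone deacetylase inhibitor. EN is ENR without R-Spondin-1, a Wnt enhancer. The organoids were kept in CV medium longer than in EN medium, so medium and time in it cannot be told apart. Each culture had 4 RNA-seq libraries, 4 ATAC-seq libraries, 3 libraries for each of the histone marks H3K27ac, H3K4me3 and H3K27me3, and 1 Hnf4g ChIP library. The labels do not say that the libraries came from separate cultures, so the p-values measure the spread between these libraries, which may be technical.

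Dietary protein reaches the small intestine as peptides that pancreatic enzymes have made. Ectoenzymes of the brush border, the dense layer of microvilli on enterocytes, shorten them to amino acids, dipeptides and tripeptides, which transporters in the same membrane take up. Aminopeptidases remove residues from the N-terminus, dipeptidyl peptidase cuts off N-terminal pairs, dicarboxypeptidase cuts off C-terminal pairs, and endopeptidases such as neprilysin and the meprins cut within the chain. Intestinal alkaline phosphatase, held on the same membrane by a lipid anchor, removes phosphate groups, among others from bacterial lipopolysaccharide.

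Markers were set beside the culture names first. In EN against CV, 8 of 8 enterocyte markers were higher and 10 of 10 transcripts of stem cell and proliferation genes were lower. The summed level of the stem cell and proliferation list was 423 to 462 TPM (abundance scaled to transcript length and library size) in CV, 1165 to 1249 in ENR and 22.5 to 25.5 in EN. That of the enterocyte list was 21719 to 22952 TPM in CV, 14784 to 16747 in ENR and 75535 to 83176 in EN. Of its markers 4 were higher and 4 lower in CV than in ENR. Lgr5, the stem cell receptor, was at a mean of 31.3 TPM in CV, 40.2 in ENR and 0.514 in EN, so its mRNA level in these libraries was lower in CV than in ENR (log2 fold change -0.52 ± 0.06). Markers of Paneth, goblet, enteroendocrine and tuft cells summed to 5816 to 6207 TPM in CV and 10716 to 11459 in ENR. In EN they summed to 7700 to 8770 TPM, with 7 of 8 higher and 1 lower than in CV. Against ENR, 6 were higher and 2 lower in EN, although the sum was lower. Lyz1, a Paneth cell gene with the list's lowest EN against CV change, fell from a mean of 3318 TPM in ENR to 1114 in EN. Muc2, a goblet cell gene with the highest, rose from a mean of 21.8 TPM in ENR to 130 in EN. Endothelial, stromal and immune markers, of which 7 of 15 were in the table, summed to 4.19 to 5.20 TPM in CV, 8.66 to 9.90 in ENR and 20.3 to 25.3 in EN. Of the 6 that were tested, 3 were higher in EN than in CV, 0 were lower and 3 were not called. The collagen genes Col1a1 and Col1a2 and the smooth muscle actin Acta2 stayed below 0.5 TPM in every library, and Vim, an intermediate filament gene, made up most of the sum with a mean of 17.8 TPM in EN. The part of these cell type markers in the results on the 9 genes was not tested. In bulk organoids, fewer cells of a type and less RNA per cell cannot be told apart. Estimated counts without spike-ins totalled 5630977 to 8859757 per library.

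Between CV and EN, 8 of the 9 genes were higher in EN and 1, Mep1a, was lower. Both counts stand against a wide background, since edgeR's quasi-likelihood test with Benjamini-Hochberg adjustment, at an adjusted p under 0.01, called 35.2% of the 9288 transcripts higher in EN and 41.2% lower. The 8 higher genes all passed 2-fold, a step that 15.2% of transcripts passed in that direction. The median log2 fold change was 2.92 over the 9 genes and -0.08 over all transcripts. Between ENR and EN all 9 genes were higher in EN, all by 2-fold or more, where 35.5% of transcripts were called higher and 13.1% were higher by 2-fold or more; the 2 comparisons share their EN libraries. The medians were 2.75 for the 9 genes and -0.01 for all transcripts. Between ENR and CV the genes divided. Enpep and Mep1a were higher in CV (background 30.2%), and Ace, Anpep, Dpp4, Mep1b, Mme and Xpnpep2 were lower (background 29.8%), while Alpi was not called. By 2-fold or more, 1 gene was higher, Mep1a (background 6.74%), and 2 were lower, Ace and Mme (background 6.17%).

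Those counts depend on what the libraries are scaled to, and the direction of change of the middle transcript does too. With library sizes set by the ERCC spike-ins, synthetic RNAs added at known amounts, the median EN against CV was -0.49 with 1473 transcripts higher and 4292 lower, against 3267 and 3829 with TMM scaling. On the mRNA copy numbers the authors derived from the spike-ins, the median was 0.62 with 4330 higher and 1202 lower. Against ENR the EN medians were -0.52 (1094 higher, 4275 lower) and 0.88 (5369 higher, 744 lower), beside 3301 and 3455 with TMM. For CV against ENR they were -0.10 (1039 higher, 1597 lower) and 0.20 (1260 higher, 397 lower), beside 2804 and 2765. On log2(TPM + 1) values 2266 transcripts were higher and 4982 lower in EN than in CV, 2666 and 4031 in EN than in ENR, and 3689 and 1901 in CV than in ENR. The 8 genes higher in EN than in CV, and the 9 higher than in ENR, kept their direction and their call under all of these, while between CV and ENR 3 of the 9 genes, Ace, Mme and Mep1a, were called on mRNA copies.

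**Figure D1:**
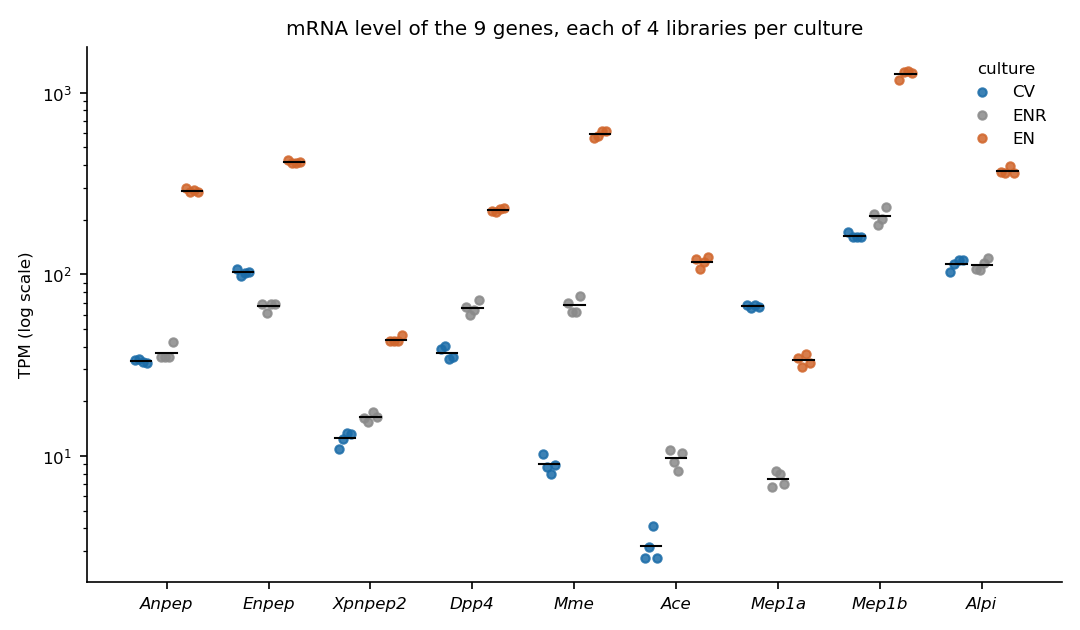
TPM on a log axis for the 9 genes in the 4 libraries of CV, ENR and EN; dots are libraries and black bars are means. In all genes but Mep1a the 4 EN libraries sit above those of CV and ENR, while Mep1a is highest in CV, at 65.7 to 68.3 TPM.

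The aminopeptidases, which remove single residues from the N-terminus, are encoded by Anpep, Enpep and Xpnpep2. Anpep encodes aminopeptidase N, the main broad neutral aminopeptidase of the brush border, and lies at chr7:86966689-86993096, minus strand (mm9). Its level was 33.6, 34.2, 32.8 and 32.6 TPM in CV, 35.2, 35.0, 35.3 and 42.3 in ENR and 299.8, 283, 291 and 283 in EN. All EN libraries were far above the other 2 cultures, which lay close to each other without overlapping. The fitted log2 fold change was 3.44 ± 0.05 (SE) in EN against CV, a 10.8-fold rise (adjusted p = 5.94e-17), and 3.12 ± 0.05 against ENR. Between CV and ENR it was -0.31 ± 0.06 (adjusted p = 0.000184), a call that was lost with spike-in library sizes (adjusted p = 0.0616), on TPM (0.0480 and 0.0404 with a pseudocount of 1 and 5) and on mRNA copies (0.809).

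Chromatin at Anpep was read in 5 of the 94469 regions, which the authors drew up as the union of peaks of all libraries. Scores are their normalized reads per region, and changes in them are differences of mean log2(score + 1) from limma's moderated test. The largest change in open chromatin was in an intron region at chr7:86982089-86982483, centred 10810 bp inside the outermost annotated start. There the ATAC score was 6, 9, 4 and 3 in the 4 CV libraries, 33, 46, 28 and 34 in ENR and 76, 78, 37 and 68 in EN. ENR was already well above CV, and ENR and EN overlapped. The log2 difference was 3.37 ± 0.32 in EN against CV (adjusted p = 1.44e-05) and -2.54 ± 0.32 in CV against ENR (adjusted p = 0.000534), while EN against ENR was 0.82 ± 0.32 (adjusted p = 0.0829). This order differed from that of the mRNA, in which ENR lay near CV. The region also held 5, 18 and 91 Hnf4g reads in CV, ENR and EN. These came from libraries of 84340, 352600 and 1816497 reads in all regions, and in RPM, reads scaled to that total, they were 59.3 (19.2 to 138), 51.0 (30.3 to 80.7) and 50.1 (40.3 to 61.5) (95% exact Poisson intervals, counting error only), which overlapped. Its middle, chr7:86982136-86982435 (mm9, plus strand), is shown because it combined a large ATAC change with many Hnf4g reads and holds none of the words searched for HNF4 (CAAAGTNCA), TCF/LEF (ATCAAAG) and CDX (TTTATNG) factors on either strand, so that no letter is in capitals:
Anpep intron region: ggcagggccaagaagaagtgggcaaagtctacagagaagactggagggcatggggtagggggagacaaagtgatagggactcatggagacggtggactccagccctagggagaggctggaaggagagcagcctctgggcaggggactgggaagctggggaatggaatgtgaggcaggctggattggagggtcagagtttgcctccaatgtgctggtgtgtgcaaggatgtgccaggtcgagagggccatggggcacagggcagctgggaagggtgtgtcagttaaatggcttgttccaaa
No region lay within 500 bp of the outermost annotated start of Anpep or in the 10 kb before it. The start regions were at an internal annotated start, and the one at chr7:86987171-86987423, 59 bp from it, scored 4, 5, 4 and 6 in CV, 9, 9, 9 and 6 in ENR and 32, 11, 17 and 22 in EN for ATAC (1.82 ± 0.28, adjusted p = 0.000386). H3K4me3, a mark of active starts, scored 5, 5 and 2 there in the 3 CV libraries, 5, 5 and 6 in ENR and 18, 13 and 20 in EN (1.90 ± 0.30, adjusted p = 0.0125), with no overlap between EN and CV.

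Enpep encodes aminopeptidase A, which removes N-terminal acidic residues and also acts on angiotensin II; it lies at chr3:128972093-129035638, minus strand. The level was 108, 97.5, 102 and 103 TPM in CV, 68.4, 61.1, 68.3 and 68.7 in ENR and 427, 409, 410.2 and 417 in EN, so ENR was lowest and no 2 cultures overlapped. The log2 fold change was 2.34 ± 0.04 in EN against CV (5.05-fold, adjusted p = 1.84e-16), 2.80 ± 0.04 against ENR (6.96-fold), and 0.46 ± 0.04 in CV against ENR (adjusted p = 1.14e-07). The last of these kept its sign but not its call with spike-in library sizes (0.37, adjusted p = 0.0714) and on mRNA copies (0.68, adjusted p = 0.0422). In EN against CV, 1 of 7 regions rose in ATAC, in an intron at chr3:128999963-129000270, which scored 9, 10, 12 and 12 in CV, 9, 10, 18 and 6 in ENR and 36, 33, 31 and 32 in EN (1.54 ± 0.26, adjusted p = 0.000692). It held 0 Hnf4g reads in CV and ENR and 2 in EN. The start region at chr3:129035149-129035911 did not pass (0.56 ± 0.20, adjusted p = 0.0533) and held 2, 1 and 12 Hnf4g reads, or 23.7 (2.87 to 85.7), 2.84 (0.0718 to 15.8) and 6.61 (3.41 to 11.5) RPM. An HNF4 word, caaagttca, lies in that region at chr3:129035390-129035398 (mm9), inside coding sequence of the first exon. Enpep thus had 1 of the 2 HNF4 words found in the 65 regions of the 9 genes while its regions together held 14 Hnf4g reads in EN, the fewest of the 9 genes.

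Xpnpep2 encodes the membrane form of aminopeptidase P, which splits an N-terminal residue from a following proline; it lies at chrX:45461902-45490158, plus strand. Levels were 10.9, 12.5, 13.5 and 13.2 TPM in CV, 16.2, 15.3, 17.5 and 16.3 in ENR and 42.8, 43.1, 42.9 and 46.3 in EN. EN stood clear of both cultures, and CV and ENR did not overlap. The change was 2.12 ± 0.07 in EN against CV (4.36-fold, adjusted p = 1.11e-13), 1.58 ± 0.06 against ENR and -0.54 ± 0.07 in CV against ENR (adjusted p = 6.84e-06, 0.376 on mRNA copies). All 3 of its regions lay at the start, and 1 of them, at chrX:45461914-45462304, was called in ATAC with 8, 12, 9 and 7 in CV, 15, 21, 18 and 13 in ENR and 11, 15, 18 and 28 in EN (0.87 ± 0.27, adjusted p = 0.0257). EN and ENR overlapped there. The call was lost without any 1 of CV replicates 1, 3 and 4 or EN replicates 3 and 4 (adjusted p 0.0503 to 0.0696) and after quantile normalization (0.0592).

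**Figure D2:**
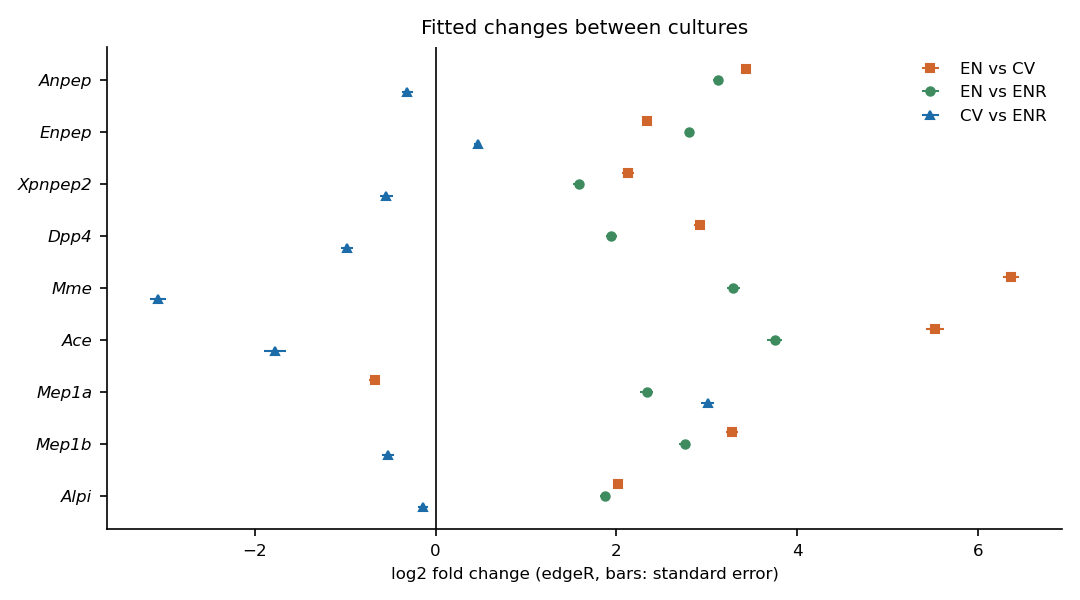
Fitted log2 fold change with its standard error for each gene in EN against CV, EN against ENR and CV against ENR. Mme has the largest EN against CV value, 6.36, and Mep1a is the only gene with a negative one, -0.67, beside a CV against ENR value of 3.01.

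Dipeptidyl peptidase 4, encoded by Dpp4, cuts N-terminal pairs that end in proline or alanine and inactivates the incretin hormones; the gene lies at chr2:62168130-62250288, minus strand. It was at 39.0, 40.2, 34.2 and 35.2 TPM in CV, 66.5, 59.5, 63.8 and 72.0 in ENR and 223, 221, 229 and 231 in EN. The 3 cultures formed 3 separate steps. The log2 fold change was 2.92 ± 0.06 in EN against CV (7.58-fold, adjusted p = 1.23e-15), 1.94 ± 0.06 in EN against ENR (3.85-fold) and -0.98 ± 0.06 in CV against ENR (adjusted p = 2.61e-09, 0.0109 on mRNA copies). Its counts held fractions in 12 of 12 libraries, as kallisto gives where reads are shared with a like transcript, so a part of them was assigned by estimate.

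Dpp4 had the most open chromatin change of the 9 genes, with 12 of 14 regions higher in ATAC in EN than in CV and 0 lower. Over all tested regions 18.3% were higher and 15.1% lower, at an adjusted p under 0.05. The strongest region, in an intron at chr2:62241659-62242054, scored 6, 3, 6 and 7 in CV, 13, 14, 16 and 14 in ENR and 51, 47, 52 and 71 in EN. Its 3 steps matched the order of the mRNA levels, with a log2 difference of 3.14 ± 0.23 in EN against CV (adjusted p = 3.71e-06) and 1.87 ± 0.23 against ENR (adjusted p = 0.000229). It held 0, 0 and 38 Hnf4g reads in CV, ENR and EN, or 0 (0 to 43.7), 0 (0 to 10.5) and 20.9 (14.8 to 28.7) RPM, so the intervals of CV and EN overlapped. A region 8058 bp before the start, at chr2:62258105-62258588, scored 33, 29, 38 and 39 in CV, 51, 55, 58 and 51 in ENR and 111, 122, 157 and 162 in EN (1.95 ± 0.18, adjusted p = 1.30e-05), and the start region at chr2:62248878-62250161 rose less (0.80 ± 0.18, adjusted p = 0.00437). The middle of the intron region, chr2:62241706-62242005 (mm9, plus strand), is shown as the Dpp4 region with the largest change, and its capitals mark a TCF/LEF word read on the minus strand:
Dpp4 intron region: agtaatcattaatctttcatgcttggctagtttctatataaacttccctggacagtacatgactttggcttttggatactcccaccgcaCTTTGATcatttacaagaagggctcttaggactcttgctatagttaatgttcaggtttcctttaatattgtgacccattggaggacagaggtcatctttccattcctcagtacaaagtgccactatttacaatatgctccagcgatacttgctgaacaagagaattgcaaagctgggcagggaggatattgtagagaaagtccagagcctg
Regions of Dpp4 held 4 of the 6 TCF/LEF words found in the middles of those 65 regions, and the same word was in 5.57% of all regions.

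Mme and Ace had the largest changes between CV and EN of the 9 genes. Mme encodes neprilysin, an endopeptidase that cuts before hydrophobic residues and degrades many peptide hormones; it lies at chr3:63099794-63186153, plus strand. Its level was 10.3, 8.73, 7.97 and 8.94 TPM in CV, 69.2, 62.3, 62.0 and 76.4 in ENR and 564, 575, 617 and 615 in EN. Each culture stood apart from the next by several fold. EN was 82.2-fold above CV (log2 fold change 6.36 ± 0.09, adjusted p = 1.51e-17) and 9.80-fold above ENR (3.29 ± 0.07), and CV was 8.39-fold below ENR (-3.07 ± 0.08, adjusted p = 2.18e-13).

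Of the 11 regions of Mme, 7 rose in ATAC in EN against CV and 0 fell. The region with the largest change, in an intron at chr3:63144485-63144772, scored 2, 1, 3 and 2 in CV, 5, 4, 4 and 7 in ENR and 13, 17, 13 and 20 in EN (2.50 ± 0.25, adjusted p = 2.04e-05). The start region at chr3:63099028-63100156 was more open in all cultures and changed less, with 17, 24, 24 and 16 in CV, 20, 33, 33 and 22 in ENR and 35, 35, 36 and 40 in EN (0.84 ± 0.22, adjusted p = 0.00973). The start held 0, 6 and 120 Hnf4g reads, or 0 (0 to 43.7), 17.0 (6.24 to 37.0) and 66.1 (54.8 to 79.0) RPM, and 96.8% of all regions had fewer in EN. This start region was 1129 bp long, and reads were not scaled to length.

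Ace encodes angiotensin-converting enzyme, which removes C-terminal pairs of residues, makes angiotensin II and breaks down bradykinin; it lies at chr11:105829259-105851278, plus strand. The level was 2.74, 3.14, 4.11 and 2.76 TPM in CV, 10.8, 9.32, 8.30 and 10.4 in ENR and 122, 108, 117 and 125 in EN. It was the lowest of the 9 genes in CV, and its cultures did not overlap. EN was 46.0-fold above CV (5.52 ± 0.10, adjusted p = 2.24e-16) and 13.5-fold above ENR (3.75 ± 0.08), and CV against ENR was -1.77 ± 0.12 (adjusted p = 6.80e-09).

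At the start of Ace, open chromatin and histone marks diverged. The ATAC difference of the start region at chr11:105829066-105829978 was 0.12 ± 0.17 (adjusted p = 0.629), with 15, 15, 18 and 13 in CV and 20, 15, 14 and 18 in EN. H3K4me3 scored 31, 22 and 23 in CV, 20, 21 and 27 in ENR and 61, 64 and 51 in EN (1.19 ± 0.20, adjusted p = 0.0155). H3K27ac, a mark of active starts and enhancers, scored 13, 16 and 12 in CV, 9, 13 and 10 in ENR and 28, 52 and 42 in EN, which did not overlap with CV but missed the threshold (1.47 ± 0.42, adjusted p = 0.0945). The same region held 8, 16 and 187 Hnf4g reads in CV, ENR and EN. In RPM these were 94.9 (41.0 to 187), 45.4 (25.9 to 73.7) and 103 (88.7 to 119), with overlap between CV and EN. Within the EN library it held the most of the 65 regions, and 98.7% of all regions had fewer. The only Ace region called in ATAC in EN against CV was a weak one at chr11:105827614-105827802, centred 1551 bp before the start, with 2, 2, 1 and 2 in CV, 5, 2, 6 and 6 in ENR and 13, 6, 9 and 12 in EN (1.97 ± 0.31, adjusted p = 0.000429).

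The subunits of meprin went different ways. Mep1b encodes the membrane-bound beta subunit and Mep1a the alpha subunit, which stays at the surface only when bound to beta and is otherwise secreted. Mep1b, at chr18:21229286-21258700, plus strand, was the highest of the 9 genes in all 3 cultures, at 171, 162, 161 and 159.8 TPM in CV, 216, 188, 202 and 235 in ENR and 1184, 1299, 1313 and 1279 in EN. The EN libraries placed it above 98.5% of transcripts. Its change was 3.28 ± 0.06 in EN against CV (9.70-fold, adjusted p = 6.17e-16), 2.75 ± 0.06 against ENR (6.74-fold) and -0.52 ± 0.06 in CV against ENR (adjusted p = 2.49e-06, 0.137 on mRNA copies). Mep1a, at chr17:43611273-43639761, minus strand, ran 68.0, 65.7, 68.3 and 66.2 TPM in CV, 6.78, 8.28, 7.99 and 6.99 in ENR and 34.6, 30.9, 36.7 and 32.6 in EN. CV was highest and ENR lowest, with no overlap. CV was 8.05-fold above ENR (3.01 ± 0.07, adjusted p = 4.57e-14) and EN 5.05-fold above ENR (2.34 ± 0.07, adjusted p = 1.26e-13). EN against CV was -0.67 ± 0.06 with TMM scaling (adjusted p = 2.13e-08) and -1.09 with spike-in library sizes (adjusted p = 6.36e-07). On mRNA copies it was 0.09 (adjusted p = 0.718). Relative to the median of all transcripts, Mep1a fell on these scales by -0.60, -0.60 and -0.53. Whether it also fell in amount is not settled, because the 2 scales based on the spike-ins disagreed.

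There were 2.36 to 2.51 Mep1b TPM for each Mep1a TPM in the CV libraries, 22.7 to 33.6 in ENR and 34.2 to 42.0 in EN. The log2 ratio of Mep1a to Mep1b was -1.28 ± 0.04 (SD, n = 4) in CV, -4.81 ± 0.27 in ENR and -5.24 ± 0.13 in EN, a difference of -3.95 between EN and CV (exact permutation test, two-sided, p = 0.0286, the smallest that 4 against 4 libraries allow). Both subunits are measured in the same library, so no scaling between libraries enters the ratio.

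**Figure D3:**
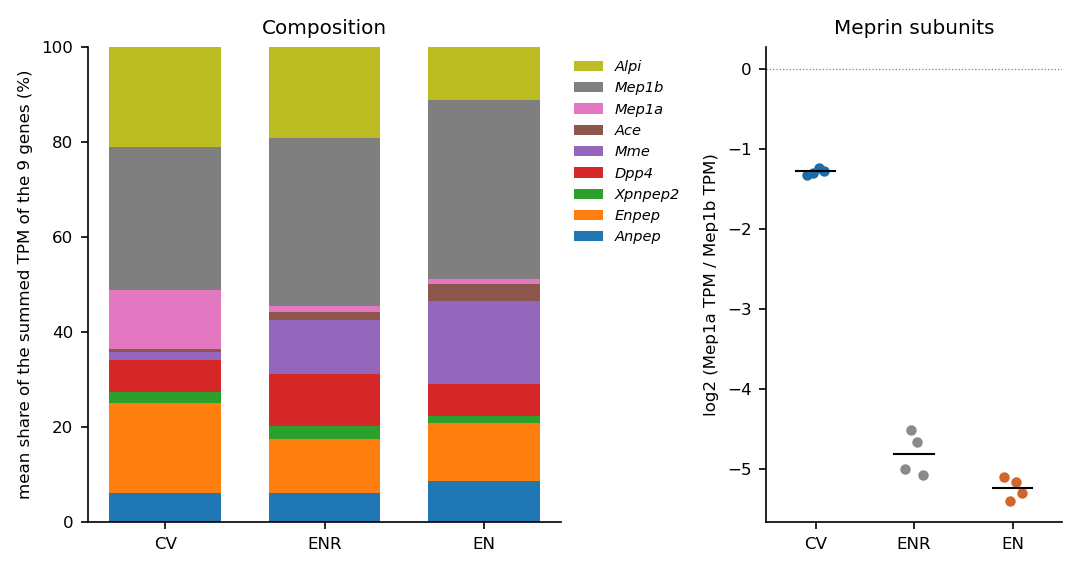
Left, mean share of each gene in the summed TPM of the 9 genes per culture, in percent; right, log2 ratio of Mep1a to Mep1b TPM in each library, with the mean as a bar. Mep1a makes up 12.4% in CV and 1.00% in EN, and Mme 1.66% and 17.6%.

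Mep1a was the only one of the 9 genes with regions called lower in ATAC in EN than in CV. Against ENR, 2 regions of Enpep and 1 each of Anpep and Ace were also called lower in EN (-1.12 ± 0.21, -1.15 ± 0.38, -1.02 ± 0.32 and -0.90 ± 0.25, with adjusted p = 0.00293, 0.0491, 0.04 and 0.0219). The region at chr17:43641246-43641585, centred 1654 bp before the start, scored 41, 39, 34 and 35 in CV, 36, 32, 42 and 43 in ENR and 3, 5, 11 and 10 in EN. CV and ENR overlapped and EN lay below both, with log2 differences of -2.35 ± 0.31 in EN against CV (adjusted p = 0.000121), -2.38 ± 0.31 in EN against ENR (adjusted p = 0.000306) and -0.03 ± 0.31 in CV against ENR (adjusted p = 0.971). The mRNA took another order, with ENR lowest. A neighbour at chr17:43641639-43641747 also fell (-1.58 ± 0.25, adjusted p = 0.000469). H3K27ac at the first region scored 19, 12 and 14 in CV, 13, 11 and 8 in ENR and 7, 4 and 5 in EN (-1.34 ± 0.42, adjusted p = 0.118). H3K4me3 in the start region at chr17:43638926-43639337 was lowest in ENR, as the mRNA was, with 7, 16 and 8 in CV, 1, 1 and 2 in ENR and 7, 7 and 7 in EN; CV against ENR was 2.22 ± 0.31 (adjusted p = 0.0176) and EN against ENR 1.80 ± 0.31 (adjusted p = 0.0155). The middle of the first upstream region, chr17:43641265-43641564 (mm9, plus strand), is shown as the strongest fall among the 65 regions, and its capitals mark a CDX word:
Mep1a upstream region: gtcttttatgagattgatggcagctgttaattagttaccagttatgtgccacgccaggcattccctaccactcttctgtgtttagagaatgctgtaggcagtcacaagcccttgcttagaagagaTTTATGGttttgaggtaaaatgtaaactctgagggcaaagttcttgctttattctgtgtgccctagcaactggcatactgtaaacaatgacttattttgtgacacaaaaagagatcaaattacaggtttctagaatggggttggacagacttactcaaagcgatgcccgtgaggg
A TCF/LEF word lies in the middle of the neighbour.

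Mep1b had 9 regions, 2 of them higher in ATAC, and its strongest, an intron region at chr18:21230128-21230261, scored 1, 4, 3 and 0 in CV and 3, 10, 6 and 11 in EN (1.63 ± 0.52, adjusted p = 0.0291), a call lost without CV replicate 1 or 4 or EN replicate 2 or 4 (adjusted p 0.0714 to 0.0803). H3K27ac at the Mep1b start region chr18:21230621-21231703 scored 36, 58 and 56 in CV, 37, 19 and 32 in ENR and 181, 136 and 140 in EN (1.61 ± 0.44, adjusted p = 0.0827).

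Alpi encodes intestinal alkaline phosphatase and lies at chr1:88994579-88998181, minus strand. Its level was 104, 114, 120.2 and 119.5 TPM in CV, 107, 106, 116 and 123 in ENR and 364, 363, 395 and 363 in EN. CV and ENR overlapped and EN stood above both. EN was 4.05-fold above CV (2.02 ± 0.06, adjusted p = 3.55e-14) and 3.68-fold above ENR (1.88 ± 0.06, adjusted p = 9.64e-14). CV against ENR was -0.14 ± 0.06 (adjusted p = 0.0444), above the threshold of 0.01, and 0.02 on TPM. The Alpi counts held fractions in 12 of 12 libraries, and the related duodenal phosphatase gene Akp3 was in the same index. Akp3 went the other way, from a mean of 18.9 TPM in CV and 10.7 in ENR to 1.84 in EN (EN against CV -3.05 ± 0.16).

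Among ATAC and the histone marks, only H3K4me3 was called at the start regions of Alpi in EN against CV. In the start region at chr1:88997550-88998053 this mark scored 6, 7 and 6 in CV, 4, 11 and 8 in ENR and 16, 24 and 30 in EN (1.69 ± 0.35, adjusted p = 0.039). Of 6 regions 1 rose in ATAC, a weak one at chr1:89001584-89001784, 3503 bp before the start, with 1, 1, 3 and 0 in CV, 2, 3, 3 and 4 in ENR and 3, 8, 8 and 13 in EN (2.04 ± 0.42, adjusted p = 0.00285). The region over the start itself, chr1:88998134-88998339, held 0, 2 and 56 Hnf4g reads, or 0 (0 to 43.7), 5.67 (0.687 to 20.5) and 30.8 (23.3 to 40.0) RPM, and an HNF4 word at chr1:88998192-88998200 (mm9). In the RefSeq promoter window of Alpi (GRCm38.p6, chr1:87101607-87101856, minus strand, shown up to the base before the start) the word starts 19 bases before the start. Only this word is in capitals, and a CDX word, tttatag, in lower case starts 33 bases before the start:
Alpi promoter: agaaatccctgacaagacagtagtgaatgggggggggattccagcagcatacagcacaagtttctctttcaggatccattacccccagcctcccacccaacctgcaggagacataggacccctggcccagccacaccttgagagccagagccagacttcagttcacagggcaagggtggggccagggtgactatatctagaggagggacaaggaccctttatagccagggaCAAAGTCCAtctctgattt
RefSeq promoter windows were on hand for 8 of the 9 genes, and Alpi was the only one of the 8 whose window held the HNF4 word, which 1.41% of all 32817 windows held.

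**Figure D4:**
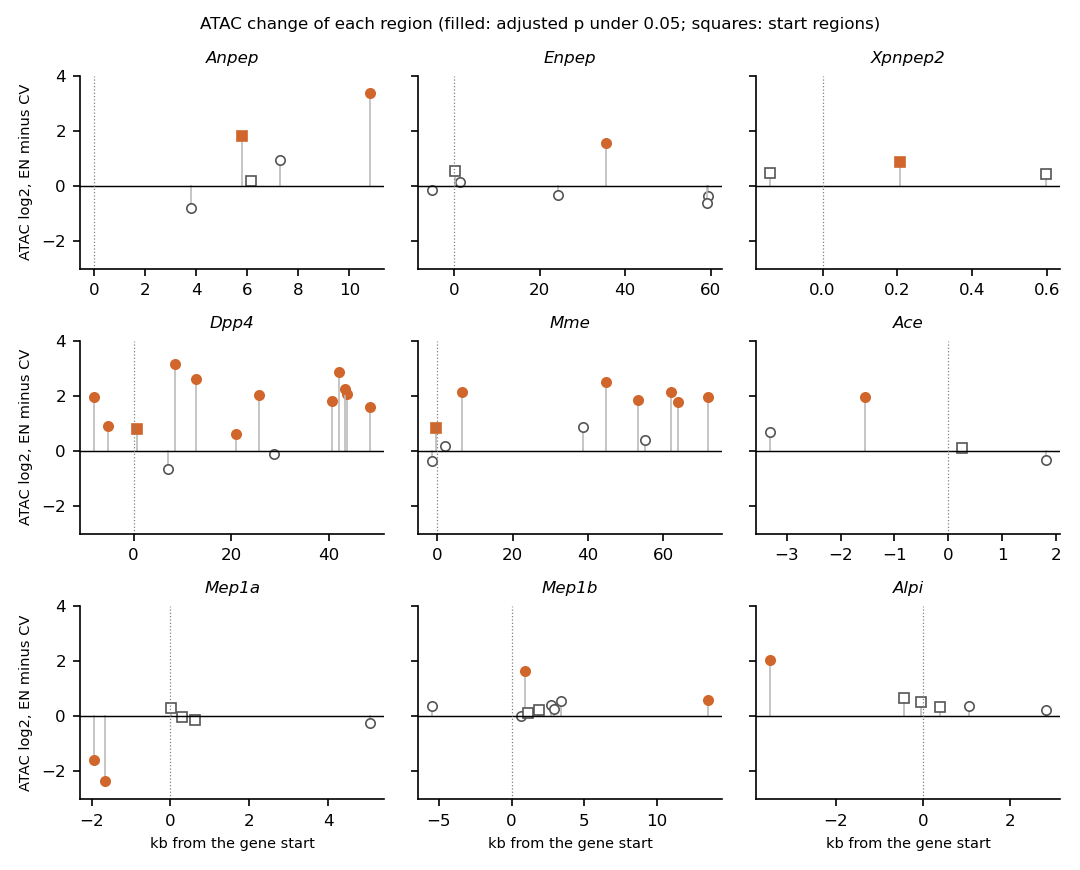
Difference of mean log2(ATAC score + 1), EN minus CV, for each of the 65 regions against its distance in kb from the gene's outermost start; filled symbols have an adjusted p under 0.05 and squares are start regions. Filled symbols above 0 are most frequent within Dpp4 and Mme, and the 2 filled symbols below 0 are both before Mep1a.

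Over the 65 regions in the 9 genes and the 10 kb before them, 27 were higher in ATAC in EN than in CV, in 8 genes, and 2 were lower, both of Mep1a, against 18.3% and 15.1% of all regions. Of the 27, 12 were of Dpp4 and 7 of Mme, and the other genes with a higher region had 1 or 2 each. Of the 17 start regions, within 500 bp of any annotated start, 4 were higher, 1 each of Anpep, Dpp4, Mme and Xpnpep2, and 0 were lower, against 13.0% of regions at any annotated start higher. By place, 18 of 33 intron regions, 4 of 17 start regions, 4 of 10 upstream regions and 1 of 5 exon regions were higher. Most intron calls came from 2 genes, Dpp4 with 9 and Mme with 6. The median log2 difference was 1.54 in introns and 0.42 at starts, beside 0.05 over all regions.

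The active histone marks mostly had positive differences at the starts, and few passed the test. H3K4me3 was higher in 4 of 17 start regions, 2 of Anpep and 1 each of Ace and Alpi (2 regions without EN replicate 2), where 1.82% of regions at any annotated start were higher, and in 7 of 61 tested regions of the genes, where 2.20% of all regions were higher. Those 7 included 1 region of Mme, in an intron at chr3:63106144-63106361 (3.16 ± 0.44, adjusted p = 0.00755). H3K27ac was called in 0 of 17 start regions, with 0.563% of all regions higher and 0.418% lower, and at most 1 region of all when any 1 CV or EN library was left out. Its median at the 17 start regions was nevertheless 0.93 with 14 positive, beside -0.14 over all regions, of which 17573 had an unadjusted p under 0.05. Valproic acid, which raises histone acetylation, was in CV medium alone, so its effect on H3K27ac cannot be told apart from that of the culture. H3K27me3, a repressive mark scored over regions widened to 1000 bp, was called in 0 of 17 start regions and in 0% of all regions in either direction, with 8121 regions at an unadjusted p under 0.05 and a start region median of -0.10 beside 0.15 over all regions.

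The mRNAs of Ace, Anpep, Dpp4, Mep1b, Mme and Xpnpep2 rose from CV through ENR to EN. On mRNA copies only Ace and Mme of these kept the call between CV and ENR. Enpep and Mep1a were lowest in ENR, and Alpi was not called between CV and ENR. The mRNA of Hnf4g, the factor whose binding was profiled, also rose from CV through ENR to EN. Its mean was 48.1 TPM in CV, 130 in ENR and 444 in EN (EN against CV 3.52 ± 0.05). Whether Hnf4g bears on these levels was not tested. Its relative Hnf4a, at 271, 237 and 211 TPM, was not called (fitted EN against CV -0.05 ± 0.03, adjusted p = 0.153), and the intestinal factor Cdx2 was at 186, 155 and 136 (-0.13 ± 0.04, adjusted p = 0.00669). Hnf4g binding was read in 1 library per culture, so no test was possible. The paper reports almost no Hnf4g binding in CV and many peaks in EN. RPM is a region's share of the library's reads in all regions. A lower or like share in EN therefore cannot be read as less or equal binding there. In RPM, the 65 regions together held 427 (95% exact Poisson interval 299 to 591) in CV, 536 (462 to 618) in ENR and 668 (631 to 706) in EN. Mme went from 0 (0 to 43.7) in CV to 51.0 (30.3 to 80.7) in ENR and 133 (116 to 151) in EN, and Dpp4 from 0 (0 to 43.7) to 79.4 (52.8 to 115) and 102 (88.2 to 118). With 0 reads in CV, 3 reads would have been 35.6 RPM, and the CV and ENR intervals of Mme overlapped. Alpi went from 11.9 (0.300 to 66.1) in CV through 25.5 (11.7 to 48.5) in ENR to 87.0 (73.9 to 102) in EN. Mep1a had a smaller share in EN, with 119 (56.9 to 218) in CV, 96.4 (66.8 to 135) in ENR and 38.0 (29.6 to 48.1) in EN, from 10, 34 and 69 reads. Xpnpep2 held 62.4 (39.1 to 94.5) in ENR and 14.3 (9.35 to 21.0) in EN. For Anpep, Ace, Enpep, Mep1b and Xpnpep2 the CV and EN intervals overlapped.

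**Figure D5:**
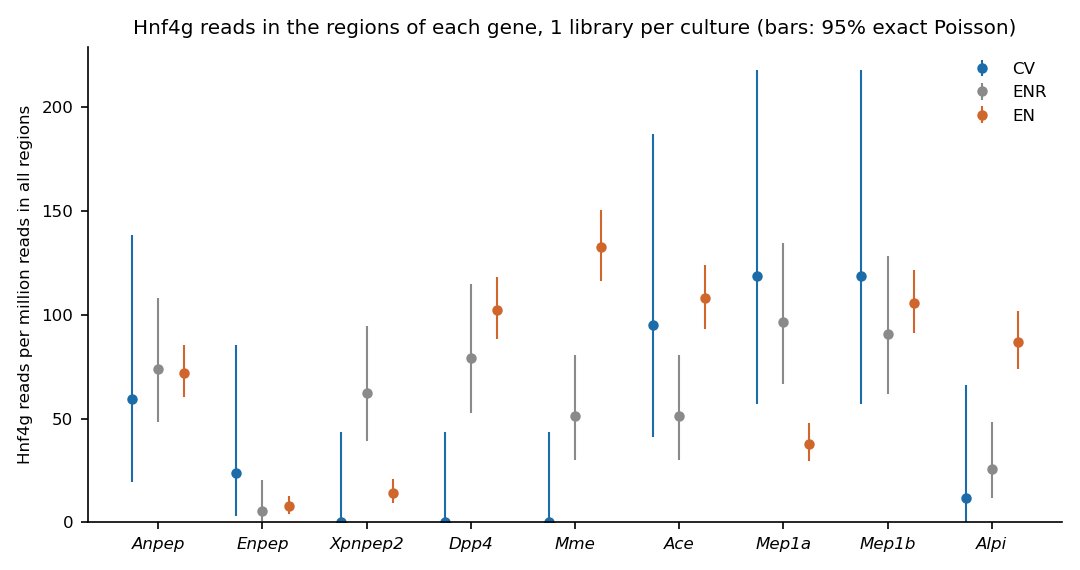
Hnf4g reads in the regions of each gene, in RPM (scaled to the reads of a library in all regions), in 1 library per culture with 95% exact Poisson intervals. Mme, Dpp4 and Alpi are higher in EN, at 133, 102 and 87.0, than in CV, at 0, 0 and 11.9, while Mep1a and Xpnpep2 lie lower in EN, at 38.0 and 14.3, than in ENR.

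As a whole, the 9 mRNAs summed to 538 to 547 TPM per library in CV, 545 to 651 in ENR and 3261 to 3452 in EN, a 6.19-fold higher mean in EN than in CV. Their make-up shifted at the same time. Mep1b held the largest share in each culture, 30.1%, 35.4% and 37.8% in CV, ENR and EN. Alpi fell from 21.1% in CV to 11.1% in EN although its level rose, and Enpep from 18.9% to 12.4%. Mme went from 1.66% in CV through 11.4% in ENR to 17.6% in EN. By TPM, which is per length, the order in CV was Mep1b, Alpi, Enpep, Mep1a, Dpp4, Anpep, Xpnpep2, Mme and Ace, with overlap between Alpi and Enpep. In EN it was Mep1b, Mme, Enpep, Alpi, Anpep, Dpp4, Ace, Xpnpep2 and Mep1a, with no overlap between neighbours. In ENR, Mep1b and Alpi led, Mme, Enpep and Dpp4 could not be ordered by their libraries, and Anpep, Xpnpep2, Ace and Mep1a followed.

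The other genes of peptide digestion and uptake give the setting. For the counts that follow, 35.2% of all tested transcripts were higher and 41.2% lower in EN than in CV, with a median of -0.08. Of 12 other brush border hydrolases 9 were in the table, and 8 were higher and 1 lower in EN than in CV, with a median log2 fold change of 3.93. Ggt1, which splits glutathione, went from 9.69 to 430 TPM (5.79 ± 0.08). Carboxypeptidase M, Cpm, was the exception, from 9.92 to 2.06 TPM (-1.93 ± 0.10). Among peptide and amino acid transporters 11 of 14 transcripts were higher, 2 lower and 1 not called, with a median of 2.56. The proton-coupled peptide transporter Slc15a1 rose from 6.03 TPM in CV and 20.9 in ENR to 205 in EN (5.40 ± 0.09), and Slc6a20a, an imino acid transporter, from 1.62 in CV to 553 in EN (8.72 ± 0.11). The glutamine carrier Slc1a5 fell by 2.97 on the log2 scale. All 4 brush border disaccharidases were higher, from Mgam (2.12 ± 0.05) to Treh, trehalase (7.53 ± 0.10). Of 24 transcripts of 22 peptidases inside the cell, 8 were higher, 13 lower and 3 not called, with a median of -0.32. The dipeptidase Cndp2 was the highest of these (2.37 ± 0.07) and thimet oligopeptidase, Thop1, the lowest (-2.69 ± 0.10). Of 10 transcription factors of the intestine 7 were higher, 1 was lower and 2 were not called.

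Among all tested transcripts, the one whose log2 CPM ran most like each gene over the 12 libraries was found by Pearson's r, given as a description because the libraries share their cultures. Mme was closest to the fatty acid receptor gene Cd36 (r = 0.9997), Mep1b to Aldh1a1, a retinal dehydrogenase (0.9994), Anpep to the transcription factor gene Creb3l3 (0.9991) and Enpep to Gucy2c, a guanylate cyclase receptor (0.9987). Alpi was closest to the brush border dipeptidase gene Dpep1 (0.9986), Dpp4 to Abr (0.9985), Ace to Btnl1 (0.9979) and Xpnpep2 to Hadh (0.9968). Mep1a had Slc25a20, the mitochondrial carnitine carrier gene, as its nearest (0.9968), which was at 179 TPM in CV, 63.2 in ENR and 114 in EN. Within the 9 genes the highest r was between Anpep and Alpi (0.997), and r of Mep1a with the others ran from -0.195 with Mme to 0.443 with Enpep.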

How the data were processed

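Mouse small intestinal organoids in CV, ENR and EN medium were profiled by RNA-seq (12 libraries), ATAC-seq, ChIPmentation for 3 histone marks and Hnf4g ChIP-seq. Per the file headers and the methods, the authors made the deposited estimated counts, TPM and spike-in-scaled mRNA copy numbers with kallisto (version 0.43.0 in the submitters' processing notes), on mouse RefSeq transcripts of proteins they had quantified, with 92 ERCC spike-ins. The deposited region scores are reads per region, aligned to mm9 with BWA, filtered, freed of duplicates with Picard, counted in a union of MACS2 2.0 peaks, normalized between libraries by the authors in a way not given in the sources used here, and rounded. For Hnf4g the deposited values are raw read counts.

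Estimated counts were rounded and fitted with edgeR 4.0.16 (R 4.3.3; quasi-likelihood, TMM, all 12 libraries in 1 fit, spike-ins left out, transcripts counted above 0 in 4 or more libraries), Benjamini-Hochberg adjusted and called at an adjusted p under 0.01. SE is the log2 fold change divided by the square root of F. Scores were tested as log2(score + 1) with limma 3.58.1 (regions scoring over 0 in 3 or more of its libraries), called at an adjusted p under 0.05. Regions were tied to genes by the mm9 GENCODE annotation, within 500 bp of a start or in the gene and 10 kb before it; their coordinates are as deposited. Motif words were searched on both strands in the middle 300 bases of regions and in RefSeq promoters; besides the words named with the results, a GATA word (AGATAAG) was in 6 of 65 member regions and 7.20% of all regions, the CDX word in 12 and 16.5%, the TCF/LEF word in 6 and 5.57%, and the HNF4 word in 2 and 5.22%. Both fits were tested on simulated data.

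All 9 genes are named, and of each other list the transcripts with the highest and lowest change plus Slc15a1, Hnf4a, Hnf4g, Cdx2, Vil1 and Lgr5 (1 further gene of that rule is not reported here); regions named are the start regions and the largest ATAC change of each gene, others were chosen after their values were seen. The genes and lists were chosen with earlier results of these data known. Alternatives were the replicate number as a block, DESeq2 1.42.0, other scalings, pseudocounts, filters and thresholds, and leaving out each library. Score sums per library were 1752385 to 2109261 for ATAC and 817265 to 1760511 for the histone marks other than H3K27me3 (1010511 to 1327017). Hnf4g knockout RNA and histone libraries without a column in the region table were not analysed here.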

Additional observations from a re-analysis of the deposited data

Results flagged for a closer look

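In 6 of 54 groups of 4 libraries 1 library lay apart from the other 3 by Dixon's test, which chance does in about 1 in 20 groups. The ENR library with 42.3 TPM of Anpep stood above the others at 35.0 to 35.3. For Alpi an EN library at 395 TPM stood above 363 to 364, and for Xpnpep2 an EN library at 46.3 above 42.8 to 43.1. For Mep1b a CV library at 171 TPM stood above 159.8 to 161.6. The lowest ENR library of Enpep, at 61.1 TPM, was under 68.3 to 68.7. The ATAC score of the Ace upstream region was 1 in 1 CV library and 2 in the other 3, which is the smallest step whole scores can take. With all libraries kept, CV and EN did not overlap in any of these 6 measures.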

How the results depend on the processing

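Of 486 changes of the 9 genes under other settings, 474 kept their direction and their side of the threshold. The 3 that reversed were Mep1a in EN against CV on mRNA copies (0.090) and Alpi in CV against ENR on log2(TPM + 1) and log2(TPM + 5) (0.017 and 0.016). The other 9 lost their call in CV against ENR, for Anpep, Dpp4, Enpep, Mep1b and Xpnpep2, under spike-in, TPM or copy scaling. On mRNA copies 3 of the 9 genes were called in CV against ENR instead of 8, and over all transcripts 1657, or 2636 with spike-in library sizes, instead of 5569. H3K27ac calls at the 17 start regions were 0, but 2 with a trend of the spread, 3 with a pseudocount of 5 and 2 of 16 with a mean score of at least 5. H3K4me3 start calls were 4, but 1 at an adjusted p under 0.01 and 2 to 6 when libraries were left out (2 without EN replicate 2). The Mep1a to Mep1b ratio stayed between -4.00 and -3.90 without any 1 library, where p cannot fall below 0.0571. Of 124 refits of the largest ATAC regions 112 kept their call, and the 12 that lost it were of Mep1b and Xpnpep2. The cause was not tested.

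In no dataset did every pair of same-numbered libraries have a correlation of deviations over 0.1 (r -0.080 to 0.111 for RNA; for ATAC all 12 pairs were positive, 0.0695 to 0.460), so the numbers were not taken as pairs. Mean r for ATAC was 0.170 over these pairs, and -0.056 over differently numbered ones, which ran from -0.446 to 0.208. With the replicate number as a block H3K4me3 start calls fell from 4 to 1, all H3K4me3 calls from 3422 to 2030 and all H3K27ac calls from 924 to 0, while RNA calls in EN against CV went from 7096 to 7063. All ATAC calls went from 31521 to 31363, and ATAC start calls stayed at 4.

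Over all regions, H3K27ac calls ranged from 0 to 7072 across settings, at most 1 when any library was left out, and H3K27me3 calls, 0 in the report, were 499 with a trend, 645 with a pseudocount of 5 and 55 after quantile normalization. ATAC calls fell from 31521 to 20014 and H3K4me3 calls to 1315 at an adjusted p under 0.01, and quantile normalization gave 982 higher and 2217 lower H3K4me3 regions, instead of 1715 and 1707. Low scores, often under 10 in a library, limit what the histone marks and the 84340 Hnf4g reads of CV can show.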
